A study of Mus musculus with 15 samples.

Results

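Zmynd11, Fubp3, Mynn, Zfp987 and Tspyl2 are genes for chromatin and transcription regulators in which somatic mutations were called by whole-exome sequencing of haematopoietic stem cells (HSCs) from old mice. They were chosen by their gene annotation from the authors' list of calls, with the call itself as the condition for entry, so the presence of a call in them is not a finding. They are 5 of the 31 genes in that list, and they hold 5 of its 32 calls. An entry is a call in a given HSC library, and the genes account for 6 of the 44 entries with values, since the Zmynd11 call was made in 2 libraries.

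The mice carried the reporter genotype Gfp-lc3/Gfp-Lc3, a transgene that joins GFP to LC3, a protein of the autophagosome membrane. HSCs were purified from bone marrow at steady state and divided by reporter signal into AThi (GFPlo) cells, labelled as autophagy-engaging, and ATlo (GFPhi) cells. There were 5 mice, each with 1 library per HSC fraction and 1 of tail DNA as the germline baseline, and all groups shared the genotype, the old age and the treatment label. The purity of the HSCs could not be checked against marker genes, because DNA carries no expression.

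Blood stem cells acquire mutations throughout life, and a mutation that arises in a stem cell with many descendants is found in a large share of the later stem cell pool. The allele fraction, the share of reads at a site that carry the altered base, rises with the share of cells in which the mutation is found, and stands near 0.5 for a heterozygous autosomal change in every cell. Genes that read, write or remodel chromatin are the best-known class of genes mutated in expanded blood clones, with Dnmt3a, Tet2 and Asxl1 as the usual examples. The 5 genes here have other roles. Zmynd11 encodes a reader of trimethylated lysine on the histone variant H3.3 that restrains transcription elongation. Fubp3 encodes a KH-domain protein of the family of Fubp1, whose members bind single-stranded nucleic acid and act on the Myc gene. Mynn encodes myoneurin, a zinc finger protein with a BTB domain, and Zfp987 encodes a zinc finger protein. Tspyl2 lies on chromosome X and encodes a relative of the nucleosome assembly proteins that slows proliferation in cultured cells.

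The calls were spread over 4 mice and recurred in none. Mouse 2 held 2 of them, among 8 calls in that mouse, and mice 1, 3 and 4 held 1 each, among 8, 3 and 9 calls. Mouse 5, with 4 calls, held none. In the authors' deposited table, 3 of the 5 calls (Fubp3, Mynn and Zfp987) were placed in AThi cells only, where 31.2% of all 32 calls lay. The Tspyl2 call was placed in ATlo cells only, where 25% of all calls lay, and the Zmynd11 call in both, where 43.8% lay. Without mouse 2, the AThi-only count was 1 in place of 3. Counts of 3, 1 and 1 are too few to set against these shares, and no test was made of them.

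By region, 3 of the 5 calls were intronic (Fubp3, Mynn and Tspyl2), against 15 of all 32. The other 2 were exonic (Zmynd11 and Zfp987), against 14 of all 32, and none was annotated as splicing. Of the 5, only the Zfp987 call changed a protein by the annotation. By kind, 4 were substitutions, 2 of them transitions, and 1 was an insertion. The whole list had 27 substitutions, of which 16 were transitions, and 5 insertions or deletions. None of the 6 entries had an identifier in the dbSNP 142 column, which was filled in 1 of 44 entries.

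The Zmynd11 call was a G>A substitution at position 9689575 of chromosome 13 in mouse 1. The genome build is not named in the sources used here, and all positions are those of the call lists. Zmynd11 is transcribed from the minus strand, so the change reads as C>T in the transcript. The annotation gave it for 12 transcripts, in exon 12 of 6 and exon 13 of the other 6. The residue was a serine numbered from 405 to 515 depending on the transcript, and the base was the third of its codon in 12 of 12. The change is therefore silent, written as C1215T in the coding sequence and S405S in the protein of the transcript listed first.

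Zmynd11 had the most reads of the 5 genes. In AThi cells the allele fraction was 0.461 at 118 reads (95% Wilson interval 0.370 to 0.547), with a quality score of 156.2. In ATlo cells it was 0.426 at 111 reads (interval 0.336 to 0.516), with a quality score of 135.8. Both intervals hold 0.5, and the 2 values differed by less than either interval is wide. The intervals are taken from alternate reads estimated as depth times fraction and rounded, 54 and 47 reads here, and cover counting error only. The quality scores ranked 10 and 11 from the top among the 44 entries.

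Whether the Zmynd11 allele fraction differed between the 2 kinds of HSC was tested as part of all 13 shared calls with values. Only calls made in both fractions of a mouse enter this set. Sites called in a single fraction are therefore left out, whatever the difference there, which was not measured. The difference of AThi minus ATlo was 0.0342 from estimated reads (95% Newcombe interval -0.0932 to 0.160), and Fisher's exact test gave p = 0.690 (two-sided, Benjamini-Hochberg adjusted p = 1). The interval leaves room for a shift of that size to either side. Of the 13 shared calls, 0% passed the adjusted threshold of 0.05 by Fisher's exact test, while 3 had an unadjusted p under 0.05 by that test and 2 by a chi-squared test. Ordered by the absolute difference in the caller's fractions, Zmynd11 ranked 8 of 13, near the median of 0.037, and ranked 4 of the 6 shared calls of mouse 1. The test compares 2 libraries of an animal and has no replicate behind it.

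**Figure D1:**
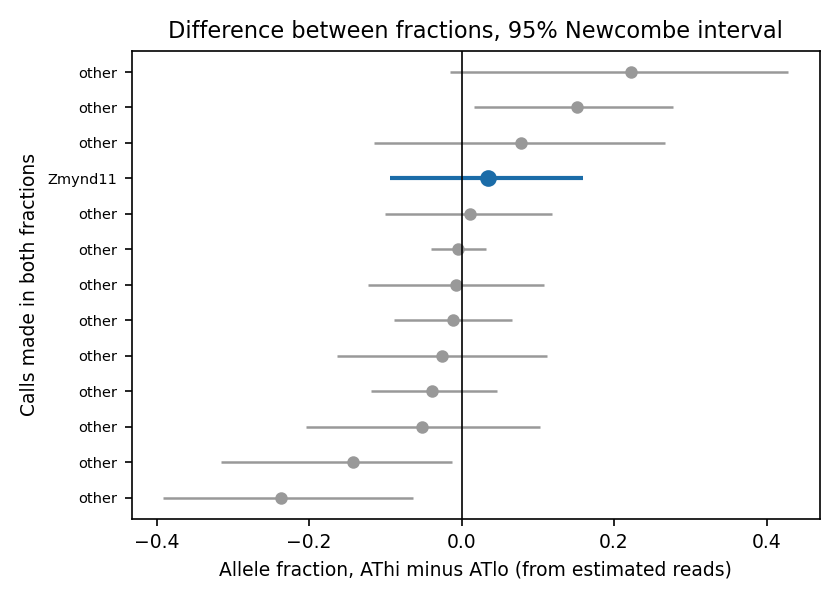
Difference in allele fraction between AThi and ATlo cells (x axis, AThi minus ATlo, from estimated reads) for the 13 calls with values in both libraries of a mouse, 1 row each, with 95% Newcombe intervals as bars. Zmynd11, in blue, has a difference of 0.0342 and an interval that spans 0.

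In the tail of mouse 1 the same Zmynd11 site had an allele fraction of 0.038 at 103 reads, which corresponds to an estimated 4 alternate reads (Wilson interval 0.0152 to 0.0956). The tail fraction shared rank 6 from the top among the 44 entries. It was lower than the fraction in AThi cells by a ratio of 12.1 and lower than that in ATlo cells by a ratio of 11.2. The tail interval lay below both HSC intervals. The same tail library stands behind both entries, so they are not independent on that side.

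The Fubp3 call was a T>C transition in an intron, at position 31615460 of chromosome 2, in AThi cells of mouse 4. Fubp3 lies on the plus strand, so the change reads the same in the transcript. Its allele fraction was 0.343 at 24 reads (interval 0.180 to 0.533), an estimated 8 alternate reads, and its quality score was 17. The tail of mouse 4 had a fraction of 0.062 at 24 reads, the highest tail fraction of all 44 entries, from an estimated 1 alternate read. The HSC and tail intervals overlapped, the latter reaching 0.202. The nearest entries of other genes in allele fraction were Eml2 in AThi cells of mouse 2 (0.348 at 73 reads) and Bcam in ATlo cells of mouse 1 (0.34 at 50 reads), both with more reads.

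The Mynn call was an insertion of TTT in an intron, at position 30607019 of chromosome 3, in AThi cells of mouse 2. At 13 reads in HSC DNA it was the shallowest of the 44 entries. Its allele fraction was 0.415 (interval 0.177 to 0.645), from an estimated 5 alternate reads, with a quality score of 10.3. The tail had 10 reads and a fraction of 0.054, which shared rank 2 from the top. The tail interval of 0.0179 to 0.404 was taken from 1 estimated alternate read, rounded up from 0.54. It overlapped the interval of the HSCs. The list held 1 other insertion, in an ATlo library, and both were intronic. Whether the inserted bases extend a run of the same base could not be read, since the sequence around the site was not used here.

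The Zfp987 call was an A>C substitution at position 146124343 of chromosome 4, in AThi cells of mouse 2. It lay in exon 4, at the second base of a codon (A344C in the coding sequence), and replaced asparagine with threonine (N115T) in the 1 transcript annotated. Its allele fraction of 0.079 at 85 reads (interval 0.0405 to 0.160) was the lowest of the 44 entries. An estimated 7 alternate reads stood behind it, and the quality score was 9.9. The tail had a fraction of 0.015 at 43 reads. The tail interval of 0.00412 to 0.121, from 1 estimated alternate read rounded up from 0.645, overlapped that of the HSCs. The next entry above it among other genes was Vmn2r117, a vomeronasal receptor gene, in the same library (0.082 at 134 reads).

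Zfp987 lies among other zinc finger genes. Of the 5 protein-coding neighbours on each side in the RefSeq annotation, 6 of 10 were named Zfp, including Zfp980, Zfp981 and Zfp990. For Zmynd11, Fubp3, Mynn and Tspyl2 the count was 0 of 10. Genes of such clusters can have near-identical copies that share reads. Whether Zfp987 has such a copy, and whether reads of a neighbour were aligned at the called site, was not tested. The call is given with that limit.

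The Tspyl2 call was an A>C substitution in an intron, at position 152340252 of chromosome X, in ATlo cells of mouse 3. Tspyl2 lies on the minus strand, so the change reads as T>G in the transcript. Its allele fraction was 0.093 at 76 reads (interval 0.0453 to 0.178), an estimated 7 alternate reads, and its quality score was 9.6. The tail of mouse 3 had a fraction of 0.018 at 52 reads (interval 0.00340 to 0.101), which overlapped the HSC interval. The AThi library of mouse 3 had no call in any gene. Kif15 in ATlo cells of mouse 4 was the next entry above among other genes (0.115 at 62 reads).

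**Figure D2:**
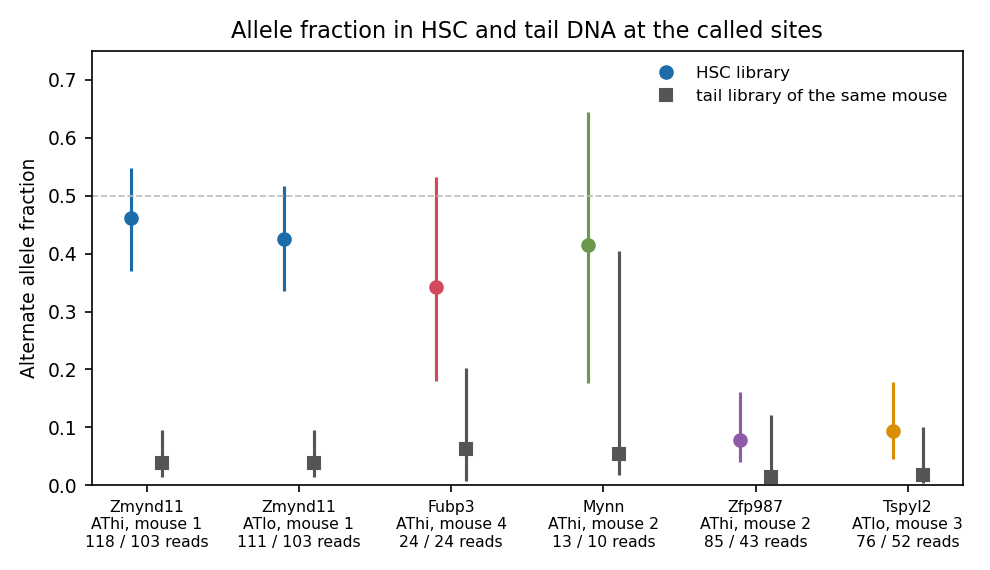
Alternate allele fraction (y axis) of the 6 entries in the HSC library (coloured circles) and in the tail of the same mouse (grey squares), with 95% Wilson intervals as bars and the HSC and tail depth under each name. Both Zmynd11 intervals stand clear of the tail, the 4 others overlap it, and the dashed line marks 0.5.

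The 4 calls in a single fraction lay as a pair at 0.343 and 0.415 at shallow sites and a pair at 0.079 and 0.093 at deeper ones. Fubp3 and Mynn, at 24 and 13 reads, had intervals that hold 0.5. Zfp987 and Tspyl2, at 85 and 76 reads, had intervals that end at 0.160 and 0.178 and do not reach those of Zmynd11. The estimated alternate reads were alike, at 5 to 8, as in the other 14 single-fraction entries (5 to 15, median 7). The fraction is alternate reads over depth, so with reads so alike it is higher at lower depth by arithmetic. The lowest estimate over all 44 entries was 5 reads. The filters of the caller were not given, so this is not a known cut-off. Whether the pairs differ in the share of cells with the mutation, or in what could be detected at each depth, was not tested. The depth at the same site in the other HSC library of the mouse was not used here, so the absence of a call there is not a measured absence of the mutation.

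**Figure D3:**
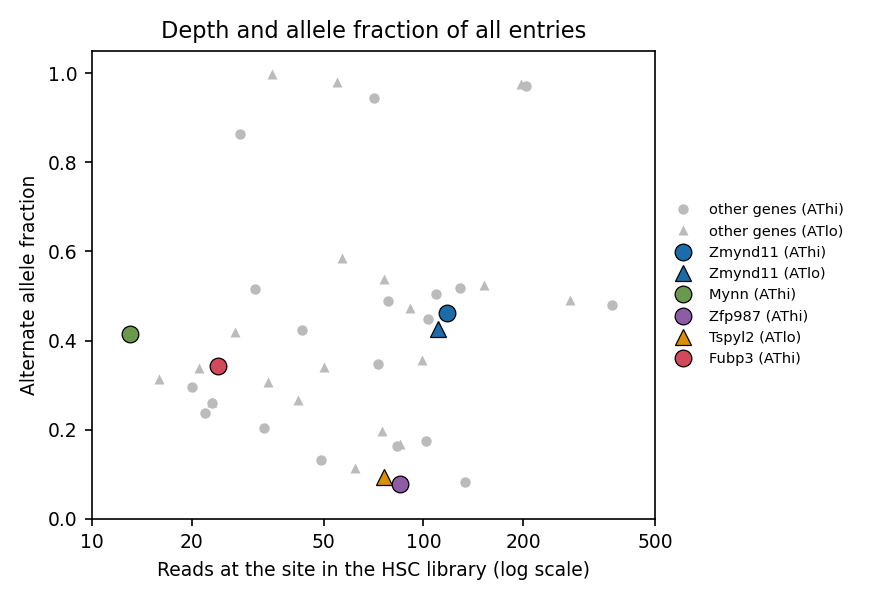
Allele fraction (y axis) against reads at the site in the HSC library (x axis, log scale) for the 44 entries, with AThi libraries as circles, ATlo libraries as triangles and the 5 genes in colour. Mynn is the shallowest entry at 13 reads and Zfp987 the lowest in fraction at 0.079, while the Zmynd11 points lie at 118 and 111 reads.

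The highest quality score, 649.3, was at the entry with the most estimated alternate reads, 198. Among entries with few reads the 2 measures did not share an order. Mynn scored 10.3 at 5 reads, while Zfp987 scored 9.9 and Tspyl2 9.6 at 7 reads each. The single-fraction calls of these genes scored 9.6 to 17, and the other 14 single-fraction entries scored 6.5 to 31.8, with a median of 15.3. Over all 44 entries the range was 6.5 to 649.3, with a median of 43.85. The scale of the score is not stated, so it serves only to order the entries. In that order Fubp3 ranked 32, Mynn 39, Zfp987 40 and Tspyl2 41 of 44.

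**Figure D4:**
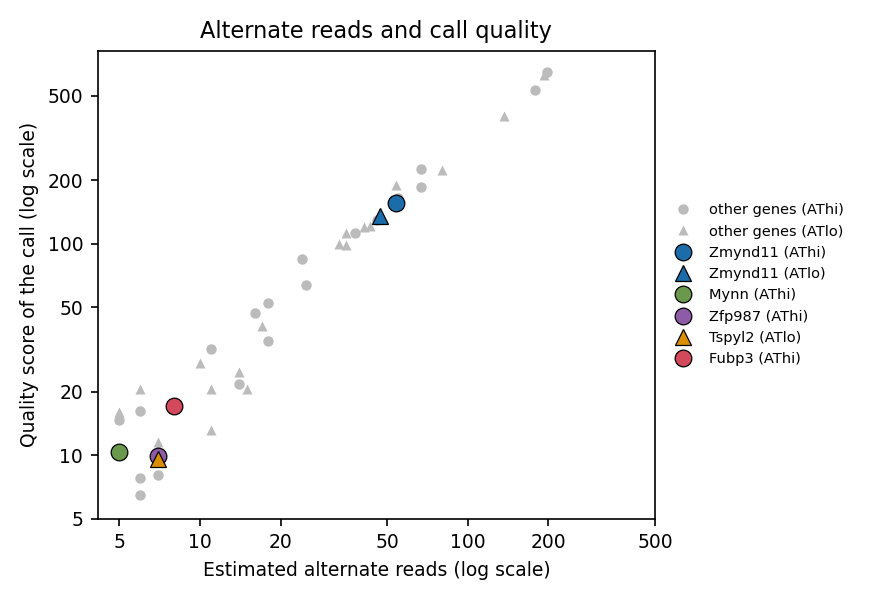
Quality score of the call (y axis, log scale) against estimated alternate reads in the HSC library (x axis, log scale) for the 44 entries, with symbols as in the plot of depth. Zfp987 and Tspyl2 lie together at 7 reads with scores of 9.9 and 9.6, and Zmynd11 lies in the upper range at 54 and 47 reads.

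The caller gave a tail fraction above 0 at every site of these genes. All 6 entries had at least 1 estimated alternate read in tail after rounding, where 77.3% of all 44 entries did. Apart from Zmynd11, the estimate was 1 read, rounded from 0.54 for Mynn, 0.645 for Zfp987, 0.936 for Tspyl2 and 1.49 for Fubp3. The fraction is the caller's estimate, so these need not be observed reads. In HSC DNA, depth times fraction was whole within its rounding in 0 of the 6 entries, and in only 6 of all 44. The tail values were not put to that check. When only entries with no estimated alternate read in tail were kept, 0 of the 5 calls were left. That count rests on the rounding: with the estimates rounded down, Mynn, Zfp987 and Tspyl2 had 0 tail reads, and 2 AThi-only calls, 1 ATlo-only call and 0 shared calls were left. The HSC interval lay above the tail interval in 2 of the 6 entries, both of Zmynd11, where it did so in 63.6% of all 44. This split went with the place of the call. It did so in 26 of 26 entries of shared calls and in 2 of the other 14 single-fraction entries. Overlap of 2 intervals does not show that the HSC and tail fractions were equal. The caller itself weighs these reads, so the counts are a description.

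HSC depth at the called sites was lower than the planned coverage in most entries. The planned coverage was given per library, while these are depths at single called sites. The measures are unlike, so the counts do not show that a library fell short of plan. All 6 entries lay below the planned HSC coverage of 150, as did 39 of all 44, and 2 of the 6 (Fubp3 and Mynn) lay below the planned tail coverage of 30, as did 9 of all 44. At the called sites of the 4 libraries with values from mice 4 and 5, the median HSC depth was 19.5 to 35 reads, and in the 5 libraries with calls from mice 1 to 3 it was 75 to 152.

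Related genes were searched in lists of 98 genes for chromatin readers and histone marks, the family of Fubp1 with Myc, BTB zinc finger proteins, zinc finger proteins with their co-factors, the Tspy and nucleosome assembly family, and HSC transcription factors. The 5 genes were in the lists, and 0 of the other 93 had a call. Of the 98 symbols, 97 were in the RefSeq table. The list of calls touches 31 genes, or 0.142% of the 21900 protein-coding symbols in the RefSeq table, so a count near 0 is also the background for lists of this size. The chromatin list held 37 genes, with Dnmt3a, Tet2, Asxl1 and Ezh2 among them, and the list of HSC transcription factors held 19, with Runx1 and Gata2. The lists do not show which genes were covered, so a gene without a call was not shown to be unmutated.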

How the data were processed

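DNA from pellets of about 10000 HSCs and from tails was exome-captured and sequenced by either of 2 services, per the labels' protocols. Of the tools, Bowtie2 is listed, per the submitters' processing notes. Calls are HSC against tail of one mouse, per the file headers, and the deposited list is named for Mutect2. Versions, filters, the build and the service per mouse were not given in the sources used here. On GRCm38.p6, 30 of 30 called sites lay inside the gene of that name. Strands, gene identity and neighbours came from RefSeq tables of that build.

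The deposited lists give depth as counts of reads, the caller's allele fraction for HSC and tail, and a quality score, per the file headers. The authors also deposited a summary that places each call. It had the same place as the lists for 5 of 5 calls, and the values of 6 of 6 entries were equal in the list of the mouse. One shared call has values not analysed here; it enters counts of calls only.

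The genes, lists and tests were chosen with earlier results of these data known. Groups followed the labels. The stated design has 6 pairs, while 5 mice were used here. Fisher's exact test ran on all 13 shared calls with Benjamini-Hochberg adjustment and was tried on simulated data. The simulations held either no difference or a difference larger than any among the shared calls. They do not measure how often a difference as small as that of Zmynd11 would be found. All 5 genes are named; other genes are named as nearest in allele fraction, from a list, or where a result turns on them. Alternatives were rounding, test, adjustment, minimums of depth, fraction, quality and tail depth, tail reads, kind of change, and each mouse left out. Depths are counts of reads, with no molecular identifiers in the values used here. Matplotlib 3.10.9, SciPy 1.17.1, NumPy 2.4.6 and Python 3.11.15 were used.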

Additional observations from a re-analysis of the deposited data

How the results depend on the processing

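The Zmynd11 difference was 0.0337 to 0.0342 over 5 alternatives, with an adjusted p = 1 in each by Fisher's exact or a chi-squared test. Changes of test or adjustment cannot alter the difference, and an adjusted p at its upper limit cannot show change, so this does not measure stability. Counts of calls moved more. With no estimated alternate read in tail, 0 calls were left in AThi only, 0 in ATlo only and 0 in both; with tail estimates rounded down (chosen after seeing the data), 2, 1 and 0 were left. At an HSC depth of at least 50, 1 call was left in AThi only, Zfp987. At a fraction of at least 0.1, and at a quality of at least 10 (chosen after seeing the data), 0 were left in ATlo only. Each of these filters also left 2 AThi-only calls in place of 3, as Zfp987 was removed. With each mouse left out, AThi-only calls ran from 1 (without mouse 2) to 3, ATlo-only calls from 0 (without mouse 3) to 1, and shared calls from 0 (without mouse 1) to 1. The filters remove calls by construction. Estimated reads over depth in place of the caller's fraction, also chosen afterwards, moved a fraction by at most 0.0304, in Mynn. No paired analysis was possible because the 1 shared call lay in a single mouse, and the counts per library come from no test, the genes having been chosen by their calls. The AThi minus ATlo count of these calls was 2 for mouse 2, 1 for mouse 4, -1 for mouse 3 and 0 for mice 1 and 5. The copies of each site in the genome were not counted, as no genome was used here. Depths of 13 to 118 reads limit every fraction given.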

Other observations

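Both low-fraction calls, in Zfp987 and Tspyl2, were A>C on the listed strand, or T>G when written from the pyrimidine. The whole list held 5 such calls, the other 3 being in introns of Slc24a2, Dgka and Terf2. All 5 were made in a single fraction, 3 in AThi and 2 in ATlo libraries, over 3 mice. Their allele fractions were 0.079 to 0.261, their quality scores 8.1 to 20.6 and their estimated alternate reads 6 or 7. The 14 single-fraction entries outside the 5 genes, which include Slc24a2, Dgka and Terf2, had a median of 7 estimated alternate reads and a median quality of 15.3. Of all 32 calls, 14 were shared: 9 of 12 C>T (Zmynd11 among them), 2 of 4 T>C, 2 of 4 C>A and 1 of 3 deletions, and 0 of the C>G, T>A, T>G and insertion calls. The kinds were set side by side after the values were seen, and no test was made.

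The Tspyl2 call in mouse 3 lay 273366 bases from the Shroom2 call, the site on chromosome X that was called in mice 1 and 4. Tspyl2 stood at 0.093, while the 6 entries of shared calls on chromosome X, 4 of Shroom2 and 2 of Rhox2e, stood at 0.863 to 0.998. These are different mice, and their sex was not examined.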
